A study of Homo sapiens with 4 samples.

Results

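ARID1A, ASXL2, KDM5A, CDC73, ETV3 and FOXO3 are 6 genes of transcription and chromatin whose 3'UTRs carried a crosslinking peak of F-MARF1ΔNYN in each of 2 replicates, at positions that did not overlap. They were chosen by these peak positions and by their function, out of 45 genes with a 3'UTR peak in each replicate and no interval shared between them, among 378 genes with any 3'UTR peak. Their 14 peaks were 8 of 719 in replicate 1 and 6 of 534 in replicate 2. Because the peaks chose the genes, the positions, fold enrichments and p-values that follow are a description without a test.

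The study used iCLIP, in which UV light crosslinks a protein to the RNA it touches before immunoprecipitation and sequencing, to map RNA bound by MARF1 in HEK293-Trex cells, as the samples are labelled, from the human embryonic kidney line HEK293. The cells of interest carried a doxycycline-inducible transgene for FLAG-tagged MARF1 without its NYN domain, switched on for 12 hr by doxycycline at 100 ng/mL. The control was HEK293-Trex cells with no FLAG-tagged protein, immunoprecipitated with the same antibody, and all cells received 400 mJ per square centimetre of UV at 254 nm. There were 2 libraries of each kind, 4 in all, and each F-MARF1ΔNYN library was compared with the control library of the same number. Whether the controls received doxycycline is not given in the sources used here, so the drug and the transgene cannot be told apart. The transgene product lacks the ribonuclease domain, so the protein mapped here is a form that cannot cut RNA through it. The peak lists carry no expression levels, so the markers of HEK293 cells could not be looked up in them.

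MARF1 is an endoribonuclease best known for its part in oocyte meiosis. Its NYN domain cuts RNA, its LOTUS and RRM domains contact RNA, and its C-terminus meets the mRNA decapping machinery. Of the proteins encoded by the 6 genes, ARID1A is a DNA-binding subunit of the BAF chromatin remodelling complex, ASXL2 is a Polycomb-associated cofactor of the histone H2A deubiquitinase BAP1, and KDM5A removes methyl groups from histone H3. CDC73, also called parafibromin, belongs to the PAF1 complex that travels with RNA polymerase II, ETV3 is a repressor of the ETS family, and FOXO3 is a forkhead transcription factor restrained by insulin signalling.

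To show what lay under the peaks, 30 nt around the summits of 3 pairs follow, read from GRCh37 on the strand of the mRNA, with the summit base as the capital letter. ARID1A had the closest pair of the 6 genes, ETV3 the farthest pair, and FOXO3 the highest fold enrichment. The ARID1A sequences are chr1:27107313-27107342 and chr1:27107490-27107519 on the plus strand, the ETV3 sequences chr1:157094385-157094414 and chr1:157091120-157091149 on the minus strand, and the FOXO3 sequences chr6:109003916-109003945 and chr6:109003048-109003077 on the plus strand. Reads were extended to 100 bp in peak calling, so a summit is the highest point of a pile of reads and not a crosslinked base.
ARID1A replicate 1: tgccctttatttatGcaaaaccacctcaga
ARID1A replicate 2: ctctttgaaaagacAaagctctgcctacat
ETV3 replicate 1: gagggtattgaactCaaaggagaaggagcc
ETV3 replicate 2: caaatttttgcataTatattatatatatat
FOXO3 replicate 1: gtgtcacaggtcccTaacaataattttctg
FOXO3 replicate 2: acttcctggattctTtagtaatgtgctgta

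The position of each peak was counted along the 3'UTR, from nucleotide 1 after the stop codon. In 3 genes (ARID1A, KDM5A and ETV3) the replicate 1 peak lay nearer the stop codon, and in the other 3 (ASXL2, CDC73 and FOXO3) the replicate 2 peak did. The gap between the nearest peaks of the replicates had a median of 1212.5 bp and ran from 27 bp in ARID1A to 3118 bp in ETV3. The 6 genes thus held neighbouring pairs as well as pairs over 1000 bp apart, and in ETV3 the pair stood at opposite ends of the 3'UTR. Of the 14 peaks, 12 were in 3'UTRs, 6 in each replicate, and 2 were in the coding sequence of ARID1A. The rule asked for a 3'UTR peak in each replicate, and in the whole lists 79.6% of peaks in replicate 1 and 84.8% in replicate 2 were in 3'UTRs. No peak (0 of 14) overlapped a further gene, and the final list of 282 shared intervals held 0 for the 6 genes.

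**Figure D1:**
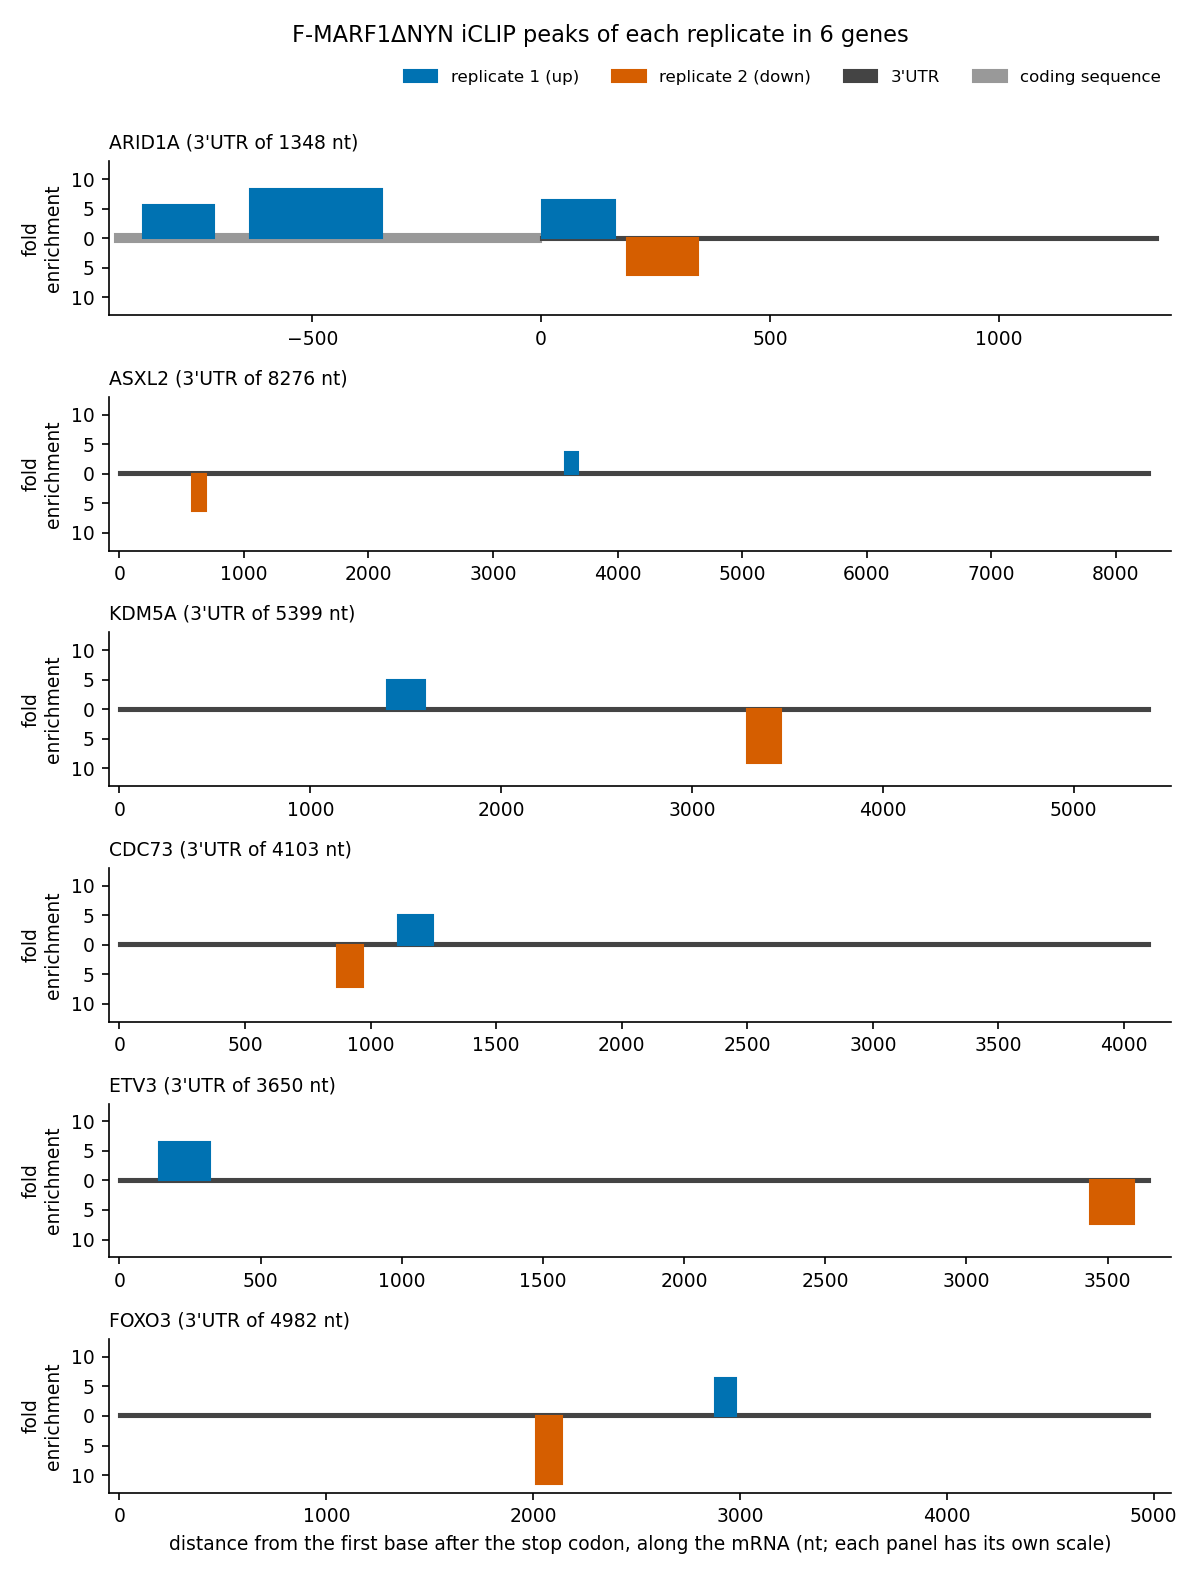
Peaks of each replicate along the 3'UTR of the 6 genes, with the distance from the stop codon in nt on the horizontal axis and the fold enrichment of each peak as its height, upward for replicate 1 and downward for replicate 2. The pair of ARID1A is 27 bp apart and that of ETV3 3118 bp, and ARID1A alone has peaks in coding sequence, 2 in replicate 1.

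A fold enrichment here is the pile of reads at a summit plus 1, divided by the local background of the control plus 1. In that pile a read counts as 1 in replicate 1 and as 0.951 in replicate 2. The p is the peak caller's Poisson probability of a count above that pile, rounded down, under that background. The q-value adjusts p for the number of tests, and the lists hold peaks with q up to 0.05. The number of reads at each summit was solved from the fold enrichment and p. Over whole lists it ran from 3 to 50 reads in replicate 1, with a median of 8, and from 5 to 51 in replicate 2, with a median of 11, and it stands for the depth of a peak, since the lists give no library totals. In the 6 genes the summits held 3 to 9 reads in replicate 1 and 7 to 17 in replicate 2. These are small numbers, and each is a single library over a single control with no spread of its own.

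The control enters the lists through the local background. At 13 of the 14 peaks that background allowed 0 control reads in a window of 100 bp, and at the replicate 2 peak of ARID1A it allowed 1. All 14 thus had a background of at most 1 control read. That was usual in the whole lists, at 89.6% of peaks in replicate 1 and 89.7% in replicate 2. The share of all peaks with 0 control reads was not counted, so nothing is read from the 13. Across the 14 peaks the q-value ran from 6.12e-15 for FOXO3 in replicate 2 to 0.0213 for ASXL2 in replicate 1. It was under 0.001 at 5 of the 8 peaks in replicate 1 (62.5%), against 85.5% of all its peaks, and at 6 of 6 in replicate 2, against 92.1%. Under 0.01 were 7 of 8 (87.5%) and 6 of 6, against 97.6% and 98.5% of all peaks. With peaks of q under 0.001 alone, 3 of the 6 genes (ARID1A, ETV3 and FOXO3) still had a 3'UTR peak in each replicate, while ASXL2, KDM5A and CDC73 had one in replicate 2 only. Over all genes, the count with a 3'UTR peak in each replicate and no shared interval was 40 at that threshold, against 45. Against its control, the F-MARF1ΔNYN library was 0.803 times as deep in replicate 1 and 1.05 times in replicate 2. From the lowest background of each list, the F-MARF1ΔNYN library of replicate 2 was estimated to be 1.11 times as deep as that of replicate 1.

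ARID1A (ENSG00000117713, chr1:27019727-27108595, plus strand) encodes a large ARID-domain subunit of the BAF complex. Its 3'UTR is the shortest of the 6, with 1348 nt in exon 20, and the same exon held all 4 of its peaks. The replicate 1 peak in the 3'UTR, chr1:27107248-27107407, began at nucleotide 1 and ended at nucleotide 160. It had a fold enrichment of 6.45 with 7 reads at the summit (Poisson p 2.28e-10, q 1.77e-05). The replicate 2 peak, chr1:27107435-27107589, covered nucleotides 188 to 342 with a fold enrichment of 6.20 and 12 reads (Poisson p 8.32e-10, q 4.65e-05). ARID1A was the only one of the 6 genes in which the 3'UTR peak of replicate 2 had the lower fold enrichment, over a background of 1 read, the highest at the 14 peaks. The gap of 27 bp was 2% of the 3'UTR, and the summits were 177 bp apart.

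Upstream of the ARID1A stop codon, replicate 1 had 2 further peaks in the coding sequence of the last exon. The stronger, chr1:27106611-27106898, was the longest of the 14 peaks (288 bp) and had the highest fold enrichment of the 6 genes in replicate 1, 8.27 with 9 reads (Poisson p 3.6e-14, q 7.4e-09). It ended 349 nt before the 3'UTR. The other, chr1:27106377-27106531, had a fold enrichment of 5.64 with 6 reads (Poisson p 7.59e-09, q 0.000354) and ended 716 nt before it. Replicate 2 had 0 peaks in the coding sequence of ARID1A, so along this exon replicate 1 had 3 peaks and replicate 2 had 1.

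ASXL2 (ENSG00000143970, chr2:25956622-26101356, minus strand) had the longest 3'UTR of the 6, 8276 nt in exon 13, and the weakest peak. That peak was in replicate 1, at chr2:25961217-25961316, nucleotides 3582 to 3681. It had 3 reads at the summit, the smallest number in the list, and a fold enrichment of 3.70 (Poisson p 1.63e-06, q 0.0213) that ranked 717 of 719. In replicate 2 the peak was at chr2:25964201-25964314, nucleotides 584 to 697, with 7 reads and a fold enrichment of 6.38 (Poisson p 2.13e-09, q 0.000103). The pair was separated by 2884 bp, or 34.8% of the 3'UTR. Without the replicate 1 peak, which a threshold of q under 0.01 or of a fold enrichment of 4 leaves out, ASXL2 had a peak in replicate 2 alone.

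KDM5A (ENSG00000073614, chr12:389223-498486, minus strand) encodes a demethylase that acts at active promoters. Its 3'UTR has 5399 nt in exon 28. The replicate 1 peak, chr12:393020-393222, lay at nucleotides 1400 to 1602 with 5 reads and a fold enrichment of 4.90 (Poisson p 1.48e-07, q 0.00397). In replicate 2 the peak, chr12:391159-391334, lay at nucleotides 3288 to 3463 with 12 reads and a fold enrichment of 9.12 (Poisson p 7.1e-15, q 1.18e-09). The replicates thus placed their peaks 1685 bp apart, 31.2% of the 3'UTR, and the fold enrichment ranked 613 of 719 in replicate 1 but 135 of 534 in replicate 2.

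CDC73 (ENSG00000134371, chr1:193091113-193223945, plus strand) encodes a tumour suppressor in the PAF1 complex and has a 3'UTR of 4103 nt in exon 17. Here the replicate 2 peak came nearer the stop codon, at chr1:193220710-193220809, nucleotides 868 to 967. It had 8 reads and a fold enrichment of 7.17 (Poisson p 5.32e-11, q 3.93e-06). The replicate 1 peak followed at chr1:193220951-193221088, nucleotides 1109 to 1246, with 5 reads and a fold enrichment of 5.03 (Poisson p 6.05e-08, q 0.00177). With 141 bp between them, 3.44% of the 3'UTR, and 218 bp from summit to summit, the CDC73 peaks were neighbours like those of ARID1A.

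The peaks of ETV3 (ENSG00000117036, chr1:157090983-157108266, minus strand) stood at opposite ends of a 3'UTR of 3650 nt in exon 5. In replicate 1, chr1:157094313-157094493 covered nucleotides 140 to 320, with 6 reads and a fold enrichment of 6.43 (Poisson p 7.73e-12, q 8.96e-07). In replicate 2, chr1:157091042-157091194 covered nucleotides 3439 to 3591, 59 nt before the end of the annotated 3'UTR, with 8 reads and a fold enrichment of 7.42 (Poisson p 9.24e-12, q 8e-07). The gap of 3118 bp took up 85.4% of the 3'UTR. The p-values of the ETV3 pair were the closest to each other among the 6 genes, at the widest distance.

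FOXO3 (ENSG00000118689, chr6:108881038-109005977, plus strand) had the strongest peak of the 6 genes. Its 3'UTR of 4982 nt is spread over 2 exons, and both peaks were in the last, exon 3. The strongest peak was in replicate 2, at chr6:109003011-109003133, nucleotides 2016 to 2138, with 17 reads and a fold enrichment of 11.4 (Poisson p 1.34e-20, q 6.12e-15), which ranked 45 of 534. The replicate 1 peak, chr6:109003874-109003973, lay farther from the stop codon at nucleotides 2879 to 2978, with 7 reads and a fold enrichment of 6.45 (Poisson p 2.28e-10, q 1.77e-05), which ranked 308 of 719. The replicates were 740 bp apart, 14.9% of the 3'UTR.

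FOXO3 was the only one of the 6 genes with a near-identical copy of its peaks elsewhere in the genome. At 95% identity over 90% of the length, 2 of the 14 peaks had a copy, and both matched FOXO3B on chromosome 17, with 99% identity for replicate 1 and 100% for replicate 2. The study's methods keep reads with up to 10 places in the genome, whereas its results section says that reads with several places were taken out. For replicate 2 the copy was identical over 100% of the peak, so a read wholly inside that peak fits both places equally. Such a read would be missing from the list if reads with several places had been taken out. Whether the reads at this summit lay wholly inside the peak was not tested, nor which filter applied to the lists as a whole. The lists held 0 peaks at the copy in either replicate. How reads were divided between FOXO3 and FOXO3B was not tested.

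Read side by side, the 3'UTR peak of replicate 2 had more reads at the summit in 6 of 6 genes and the higher fold enrichment in 5 of 6. Over all peaks of the 6 genes replicate 1 had a median fold enrichment of 6.04 and replicate 2 one of 7.29. The same order was seen in the whole lists, with medians of 6.12 and 7.50. Peaks shared by the replicates had medians of 7.21 and 8.15, and peaks of a single replicate 5.71 and 7.09, and all 14 peaks of the 6 genes are of the latter kind by the rule that chose them. In reads at the summit, the 6 genes had medians of 6 and 10, shared peaks 12 and 14, and single-replicate peaks 7 and 10. For the 39 other genes of the 45, the top reads in the 3'UTR had medians of 7 and 9. Not all of these had more reads in replicate 2, and OGT had fewer.

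**Figure D2:**
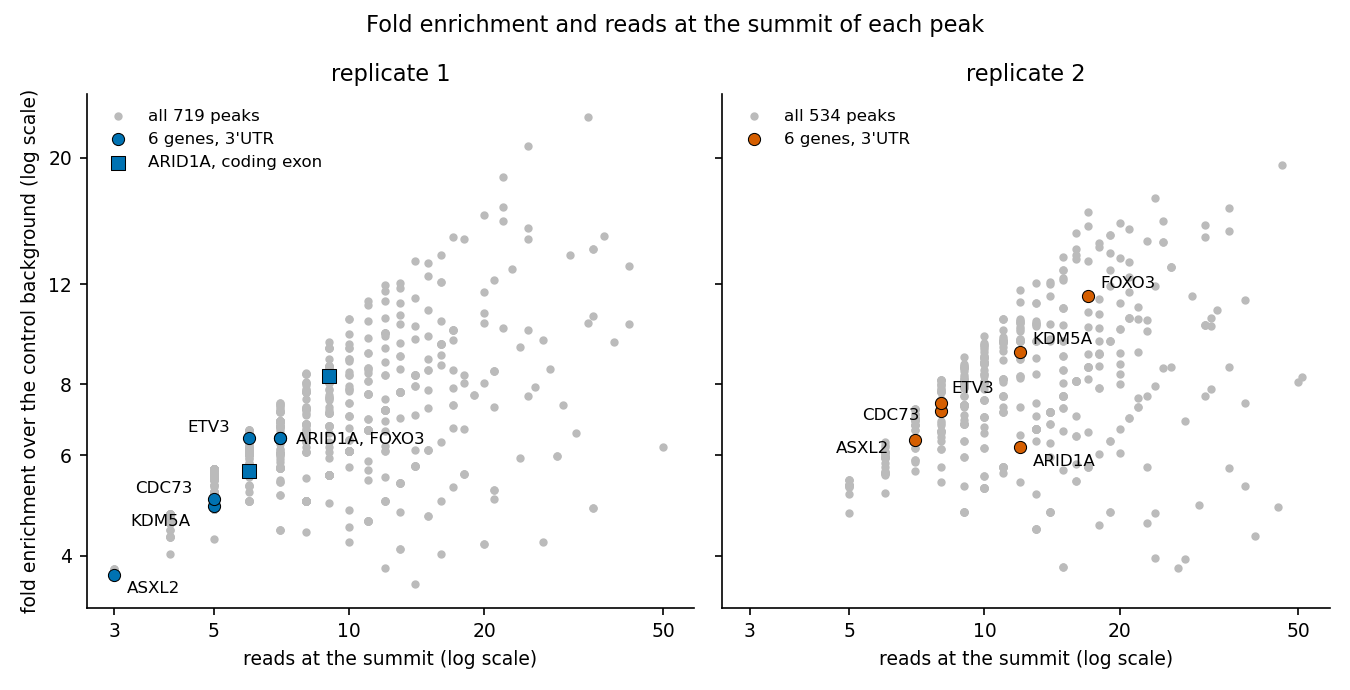
Fold enrichment against the number of reads at the summit, both on log scales, for all peaks of each replicate (grey) and the peaks of the 6 genes (coloured; squares are the coding peaks of ARID1A). ASXL2 in replicate 1, with 3 reads, is at the lower left corner, and FOXO3 in replicate 2, with 17 reads and a fold enrichment of 11.4, is the highest of the 6 genes.

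Peaks in 3'UTRs were rare among all genes. Of 19085 protein-coding genes with an annotated 3'UTR, 1.61% had a 3'UTR peak in replicate 1 and 1.16% in replicate 2. A 3'UTR peak in each replicate was found for 152 genes (0.796%), of which 107 had a shared interval and 45 (0.236%) had none. The 6 genes belong to those 45 by the rule that chose them, so nothing is read from these shares. Their 3'UTRs had a median length of 4542.5 nt, against 3977 nt in the other 39 genes of the 45, 3513 nt in the 107 genes with a shared interval and 1068 nt in all protein-coding genes. In each of these 3 sets with peaks in both replicates, the median was above that of all genes.

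In the order of gaps over the 45 genes, the 6 were spread from near the top to the bottom of the list. ARID1A came at place 2, between OGT (7 bp) and PARD6B (33 bp), and CDC73 at place 6, between NT5DC3 (111 bp) and MICAL3 (170 bp). FOXO3 was at place 27, between FNDC3A (653 bp) and TMEM170B (768 bp), and KDM5A at place 38, between TRIM2 (1637 bp) and ZFP91 (1990 bp). ASXL2 and ETV3 took the last places, 44 and 45, after PRRC2B (2833 bp). The median gap was 428 bp over all 45 genes and 424 bp over the 39 others, and 4 genes had a gap of at most 100 bp and 15 a gap over 1000 bp. The 39 others had the higher fold enrichment in replicate 2 in 31 cases, and the 107 genes with a shared interval in 71.

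**Figure D3:**
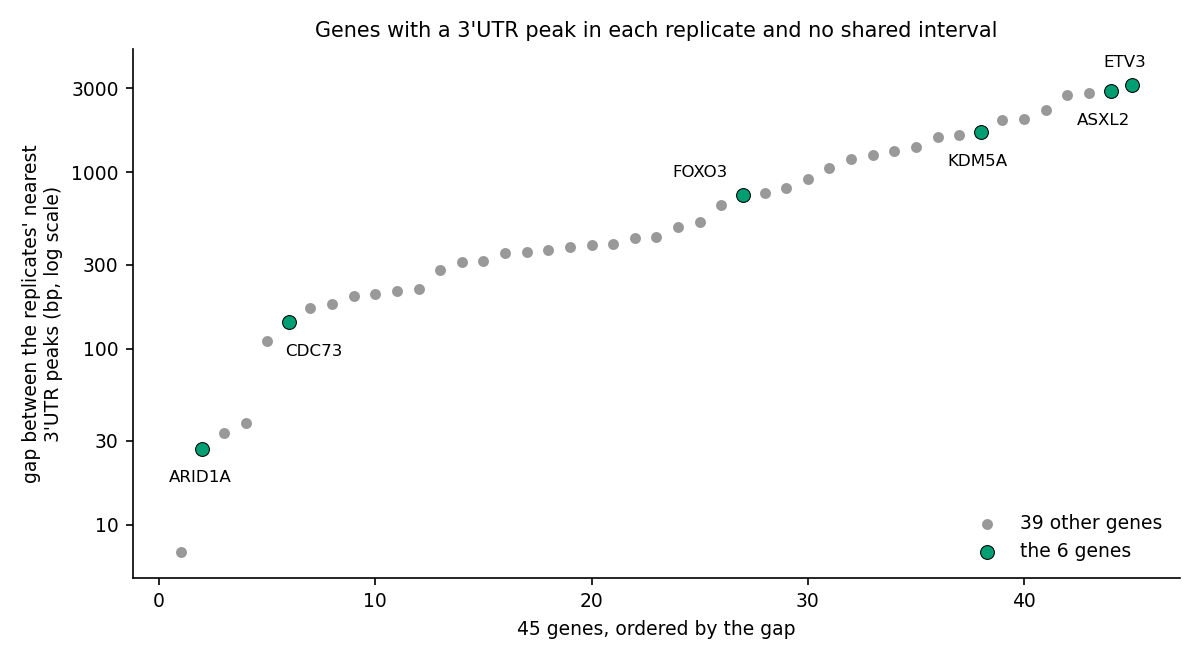
Gap in bp (log scale) between the nearest 3'UTR peaks of the replicates in the 45 genes with a 3'UTR peak in each replicate and no shared interval, ordered by the gap. The 6 genes (green) run from ARID1A at 27 bp to ETV3 at 3118 bp, the widest gap of the 45.

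An overlap of 1 bp counted as shared. Just inside that rule, the shortest intervals of the final list were 3 bp at the Polycomb group gene SUZ12, 7 bp at a place without a gene symbol, and 9 bp at the corepressor SKI, all picked after their values were seen. Just outside it stood OGT and ARID1A, whose peaks were 7 bp and 27 bp apart. SUZ12 and SKI did not rest on their short intervals alone. Between their nearest 3'UTR peaks the gaps were -232 bp and -100 bp, where a negative gap is an overlap. A gap of up to 50 bp allowed as shared would take in 4 of the 45 genes (8.89%), ARID1A among them. One of up to 500 bp would take in 24 of the 45 (53.3%), and of the 6 genes ARID1A and CDC73.

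The partners and relatives of the 6 proteins were looked up in the same lists. A peak in the gene body in either replicate was found for 3 of 71 such genes (4.23%), against 2.34% of 20175 protein-coding genes, and a peak in each replicate for 2 (2.82%), against 0.818%. With counts this small, no difference from the background is read. In the BAF complex, 1 of 26 genes had peaks, PHF10, a subunit of the PBAF form. It had 5 peaks in replicate 1 and 2 in replicate 2, with top fold enrichments of 8.66 and 6.68, and its 2 shared intervals made it the 1 related gene of the final list. A replicate 1 peak at PHF10 also overlapped C6orf120, and the lists carry no strand.

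Among 10 genes of the ASXL and BAP1 complexes, OGT had peaks. OGT, the enzyme that attaches N-acetylglucosamine to proteins, had 2 peaks in replicate 1 and 1 in replicate 2, with top fold enrichments of 8.49 and 5.53 and 15 and 10 reads. Like the 6 genes it had no shared interval (0). Of 12 JmjC demethylases related to KDM5A, KDM5B had 1 peak, in replicate 1 and outside the 3'UTR, with a fold enrichment of 6.25 and 6 reads (q 6.08e-06). No peak was found for the 5 PAF1 complex genes, the 15 ETS genes or the 3 FOXO genes looked up (0 of each). Reads outside peaks are not listed, so weaker binding to these mRNAs was not detectable.

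Base composition was measured in windows of 100 nt centred on the summits. The 12 3'UTR windows of the 6 genes had a median GC content of 42.5% (range 22 to 55%), against 36.5% in 250 other windows of the same 3'UTRs and 42% at 1017 of the 1025 3'UTR peaks of all genes. The other 8 were in 3'UTRs of genes on opposite strands and had no window. In 10 of the 12 the GC content was above the median of the other windows of that 3'UTR. The same count was not made for the 3'UTR peaks of other genes, so it is not read as particular to the 6. KDM5A in replicate 2 was the most GC-rich, with 55%, more than each of its 49 other windows. ETV3 in replicate 2 was the poorest, with 22%, less than each of its 32 other windows, and its printed summit sequence ends in a run of alternating a and t. FOXO3 in replicate 2, the strongest peak, had 38%, below the gene's median of 40%.

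**Figure D4:**
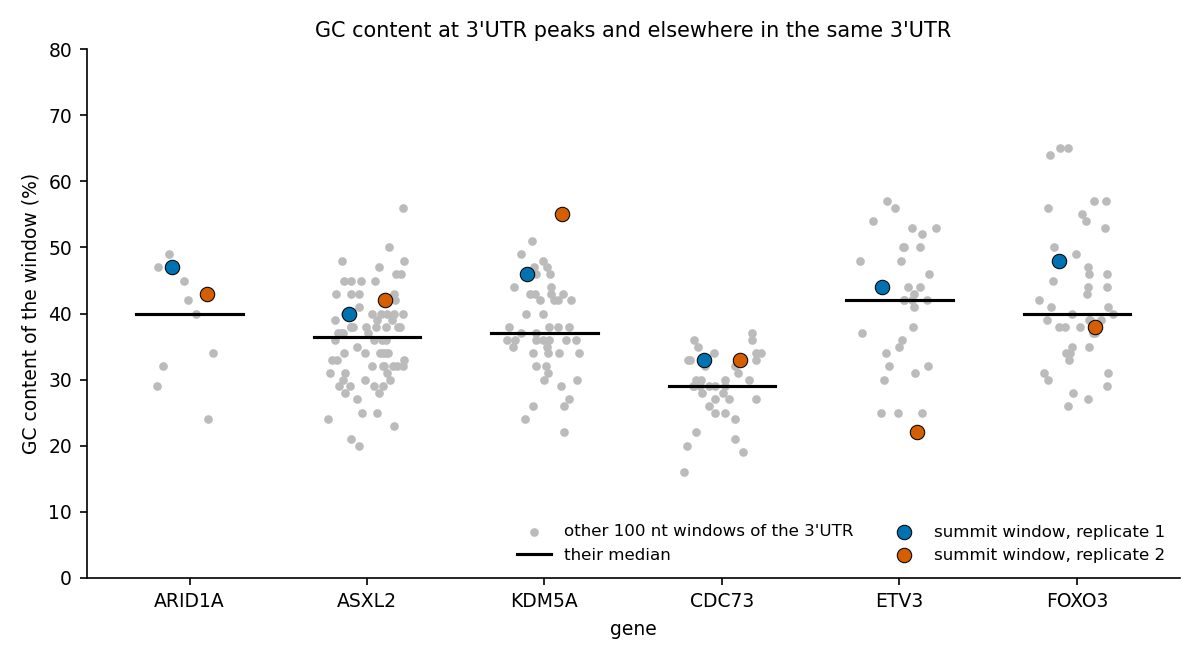
GC content in percent of 100 nt windows at the 3'UTR summits (blue, replicate 1; orange, replicate 2) and of the other windows of each 3'UTR (grey, with their median as a bar). Of the 12 summit windows, 10 lie above the median of their gene, and ETV3 and FOXO3 in replicate 2 lie below it.

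The predicted folding energy of the 12 windows had a median of -18.75 kcal/mol, where a lower value stands for a more stable fold. It was -16.75 kcal/mol in the other windows of the same 3'UTRs and -20.8 kcal/mol at the 1017 3'UTR peaks. KDM5A in replicate 2 had the lowest value of the 12, -37.6 kcal/mol, and ARID1A in replicate 2 the highest, -8.6 kcal/mol. In 8 of the 12 windows the energy was below the median of the gene's other windows, a count likewise not made for the peaks of other genes. Predicted energies depend on GC content, and their parts were not separated.

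The letters AAATT, picked from earlier results of these data and searched on the mRNA strand alone, were present in 1 of the 12 windows (8.33%), that of ETV3 in replicate 2. They were present in 64 of the 250 other windows (25.6%) and in 148 of the 1017 windows at 3'UTR peaks of all genes (14.6%). The letters bear on these windows alone, and nothing is read from their absence.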

How the data were processed

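Per the study's methods, the authors used Trimmomatic 0.32 for trimming and STAR 2.3.0e for alignment to hg19 (GRCh37), kept reads with up to 10 places (the results section instead has reads with several places taken out), and removed secondary alignments (SAMtools 1.9) and duplicates (Picard 2.10.7). MACS2 2.1.1 called peaks in each F-MARF1ΔNYN library against its numbered control, unpooled, with an extension of 100 bp and q up to 0.05, and HOMER 4.10 annotated the shared intervals. The deposited peak lists give each peak a fold enrichment, which is a ratio to the local background on a linear scale, with its p-value and q-value as −log10. The deposited final list gives a score. They hold no counts per library, so no test between conditions could be made.

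Here peaks were placed by their middle base in GENCODE release 44 on GRCh37. Reads at the summit were solved from fold enrichment and p for 719 of 719 and 534 of 534 peaks, at a weight of 1 and 0.951 per read, which was tested on simulated data. The backgrounds were whole multiples of 0.01 control reads, within 1% of that step, at 95.4% and 98.1% of peaks. The depth of replicate 2 over replicate 1 assumes that the lowest background of each list (33 and 10 peaks) is set by library size alone. Near copies were sought with blastn 2.17.0 and folding was predicted with ViennaRNA 2.7.2. Python 3.11.15, numpy 2.4.6, pandas 2.3.3, scipy 1.17.1, pysam 0.24.0, samtools 1.23.1 and matplotlib 3.10.9 were used. Named genes are the 6 genes, the 71 partners and relatives where they had a peak, neighbours in the order of gaps, overlapping genes and near copies. SUZ12 and SKI were named outside this rule, after their values were seen, and 1 of the 71 was matched through a RefSeq synonym. The members and lists were chosen with earlier results of these data known. Alternatives covered q-values, fold enrichment, placement in the 3'UTR, distance and the genes used.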

Additional observations from a re-analysis of the deposited data

How the results depend on the processing

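No paired analysis was possible because the lists set each library against the control of its number and give no value for a library by itself. Of 40 alternatives, 5 moved a value, which for a count or a gap means by over 1.5 times and for a median fold enrichment by at least 0.89, the SD of the replicates' medians. The other 35 include settings that could not change a value, because the rule fixed it or because they left out no peak or altered no gap, and are not read as a sign of stability. At q under 0.001, 3 of the 6 genes kept a 3'UTR peak in each replicate, with ASXL2, KDM5A and CDC73 lost through their replicate 1 peaks. The peaks of replicate 1 fell from 8 to 5, while replicate 2 kept 6 of 6. A stricter threshold can only keep or lower such counts, but it does not fix the size of the fall. Replicates' peaks came together in 0 genes with the overlap rule, in 1 with gaps of up to 50 or 100 bp (4 of all 45 such genes) and in 2 with gaps of up to 500 bp (24 of 45). At q under 0.01, or a fold enrichment of at least 4, 5 genes were left. Over the whole lists, the count of genes with a 3'UTR peak in each replicate and no shared interval was 45, and recounts gave 42 at q under 0.01, 40 at q under 0.001, 44 at a fold enrichment of at least 4, and 45 with other placements in the 3'UTR. Whether these are the same genes was not compared. The median gap was 1378.5 bp from summit to summit and 1685 bp without FOXO3, an alternative added after seeing the data. Summits of 3 to 17 reads limit all values for the 6 genes, and sites below the peak caller's threshold were not detectable.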
